A study of Arabidopsis thaliana with 12 samples.

Results

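The stomatal lineage and *ERECTA* family genes described here were 10 genes of *Arabidopsis thaliana*: *SPCH* (AT5G53210), *MUTE* (AT3G06120), *FAMA* (AT3G24140), *TMM* (AT1G80080), *EPF1* (AT2G20875), *EPF2* (AT1G34245), *ERECTA* (AT2G26330), *ERL1* (AT5G62230), *ERL2* (AT5G07180) and *SDD1* (AT1G04110). They were taken as the loci of the L*er* expression table whose listed Columbia homolog is the gene in question, and each of the 10 was matched by 1 locus with 1 homolog, out of 27147 loci in all. RNA-seq was performed on calli 7 days after incubation of leaf explants on callus-inducing medium (CIM; DAC7) and on de novo shoots 14 days after transfer to shoot-inducing medium (SIM; DAS14). Wild type (WT) L*er* and the *dme-2* mutant in the L*er* background, a mutant of the DNA demethylase gene *DEMETER* (*DME*), were compared at both stages. The 4 groups were thus WT calli, *dme-2* calli, WT shoots and *dme-2* shoots, with 3 libraries each, stated to be biological replicates. Explants were true leaves of seedlings 14 days after germination, calli were kept in continuous dark and shoots under long days, so medium, light and time cannot be told apart from the stage. All 4 groups share the L*er* background, which carries a mutated *ERECTA* allele, so a transcript level of *ERECTA* here is that of the mutant gene. The *dme-2* plants are 1 allele, and no rescued line was compared.

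Stomata are pairs of guard cells in the shoot epidermis that open and close a pore. In Arabidopsis, the bHLH transcription factors SPCH, MUTE and FAMA act one after the other: SPCH starts the lineage, MUTE ends the stem cell-like divisions and FAMA sets the guard cell fate, each together with SCRM or SCRM2. The secreted peptides EPF1 and EPF2 restrain the lineage through the receptor kinases ERECTA, ERL1 and ERL2, with the receptor-like protein TMM as a partner and the MAP kinase cascade of YDA downstream, and the related peptide EPFL9 promotes it. The ERECTA kinases also act outside the epidermis, in stem and meristem growth.

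Abundance is given as TPM, a transcript level adjusted for length that allows genes to be compared within a library, and as whole read counts. Counts totalled 12981250 to 20128757 per library in the 9 libraries used. The 3 count columns named for *dme-2* calli departed from the TPM columns of the same name by 0.879 to 1.08 (median absolute log2 deviation), against 0.0293 to 0.0788 in the other 9, over 12835 loci, and were not used; all values for *dme-2* calli therefore rest on TPM. *DME* itself had 10.11 to 13.17 TPM in WT calli and 3.14 to 3.54 TPM in *dme-2* calli, and 18.65 to 19.44 TPM in WT shoots and 7.49 to 7.89 TPM in *dme-2* shoots, in the direction the labels give. Of the markers fixed for cell types, the 7 root and callus genes summed to 76.98 to 88.01 TPM in WT calli and 31.83 to 32.95 TPM in WT shoots; 5 of them, among them *LBD16*, *LBD29* and *PLT1*, were lower in WT shoots by edgeR, 1 (*SCR*, 4.31 to 8.06 and 16.86 to 18.04 TPM) was higher, and *SHR* was not called (4.38 to 8.82 and 11.76 to 12.99 TPM). The mesophyll markers *LHCB3* and *PSAF* summed to 27.99 to 33.85 TPM in WT calli and 6064.73 to 6262.57 TPM in WT shoots.

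Of the 10 genes, 9 rose and 1, *FAMA*, fell between WT calli and WT shoots (edgeR quasi-likelihood test, Benjamini-Hochberg adjusted p under 0.05, 3 libraries a group). Over all 19616 loci tested, 43.4% were higher and 38.4% were lower in WT shoots. The TPM of the groups did not overlap for any of the 10 genes, where 56.7% of all loci were apart upward and 27.7% downward. By limma on TPM the calls were also 9 and 1, beside 54.9% and 26.9% of 18787 loci. The median log2 fold change was 5.59 over the 10 genes, or 5.18 with the genes that had no count in calli set to the lowest fold their counts allow, and 0.144 over all loci. In bulk tissue, a change in the number of cells of a type and a change in RNA per cell cannot be told apart. For most of the 9 genes that rose, shoots alone carried enough reads for the test: with a minimum of 10 counts in every library only *ERECTA* and *FAMA* could be tested.

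**Figure D1:**
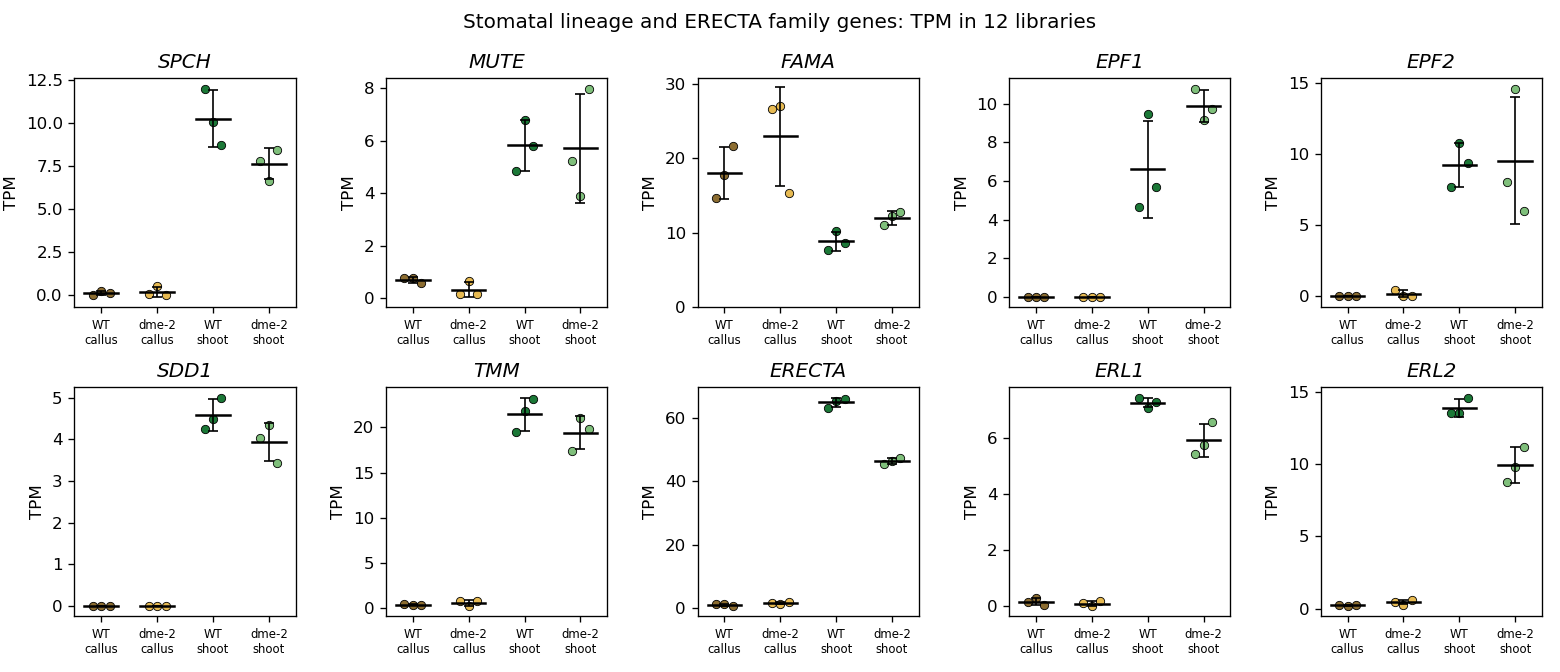
TPM (vertical axis, a separate linear scale for each gene) of the 10 genes in the 3 libraries of each of the 4 groups; points are libraries, horizontal bars the group means and error bars 1 SD. Calli sit at or near 0 for 9 genes, while *FAMA* lies between 14.63 and 27.04 TPM in calli and between 7.73 and 12.86 TPM in shoots.

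*SPCH*, the factor that starts the lineage, had 0, 0.26 and 0.15 TPM in the WT callus libraries and 11.99, 10.05 and 8.73 TPM in the WT shoot libraries. These were 7 counts in all in calli and 518 in shoots, a ratio of 53.1 after scaling to library size (95% interval 25.6 to 133, counting error only; log2 fold change 5.69, SE 0.42, adjusted p = 1.96e-06 by edgeR). Every shoot library stood above every callus library. *MUTE*, the factor of the next step, had 0.76, 0.75 and 0.56 TPM in WT calli and 4.86, 6.8 and 5.8 TPM in WT shoots. It rose by a log2 fold change of 2.42 (SE 0.27, adjusted p = 3.04e-05 by edgeR), or 5.34-fold, less than any other of the 9 genes that rose. For *EPF1* and *SDD1*, which had no count in calli, only lower limits were available. With a floor of 3 counts in each callus library these were 8.14-fold and 32.1-fold.

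*FAMA*, the last of the 3 factors, moved the other way. Its levels were 14.63, 17.75 and 21.66 TPM in WT calli and 7.73, 10.3 and 8.58 TPM in WT shoots, and the groups did not overlap. The log2 fold change was −1.69 (SE 0.17, adjusted p = 1.73e-05 by edgeR), or −0.94 on the log2(TPM + 1) scale (limma, adjusted p = 0.00184); over the 13 alternative settings the adjusted p lay between 3.93e-16 and 0.00184. *FAMA* was thus the only 1 of the 10 genes with a mean above 1 TPM in WT calli, at 18.0 TPM, followed by *ERECTA* at 0.993 TPM and *MUTE* at 0.69 TPM. Of the TPM that the 3 bHLH genes held together, *FAMA* took 95.5% ± 1.15 in WT calli and 35.5% ± 3.54 in WT shoots (SD, n = 3). *SPCH* took 0.687% ± 0.695 in WT calli and 41.2% ± 6.59 in WT shoots, and *MUTE* took 3.81% ± 1.23 and 23.3% ± 3.03.

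**Figure D2:**
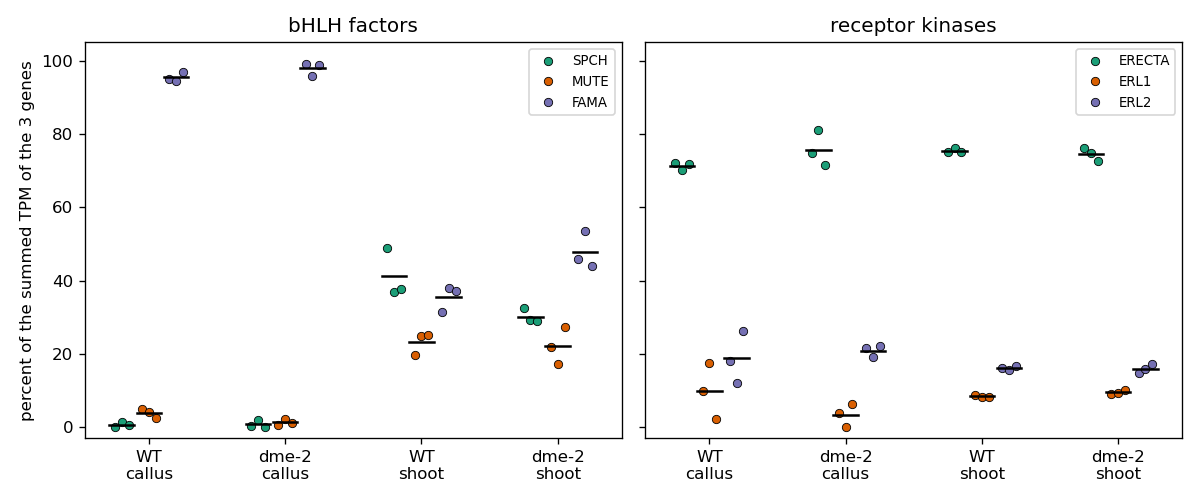
Percent of the summed TPM of 3 genes taken by each gene, for *SPCH*, *MUTE* and *FAMA* (left) and for *ERECTA*, *ERL1* and *ERL2* (right); points are libraries and bars the group means. *FAMA* holds 94.6 to 99.2% of the bHLH sum in the 6 callus libraries and 31.4 to 53.6% in the 6 shoot libraries, while *ERECTA* holds 70.3 to 81% of the receptor sum in all 12.

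The peptides that restrain the lineage went from no or 1 read to a clear level. *EPF1*, which acts on the later divisions, was listed at 0 TPM with no count in the 3 WT callus libraries, and had 4.66, 9.46 and 5.72 TPM in the WT shoot libraries. With a floor of 3 counts in each callus library, it was at least 8.14-fold higher in WT shoots (adjusted p = 3.64e-05 by edgeR). *EPF2*, which acts on entry into the lineage, was also listed at 0 TPM in WT calli, with 1 count in 1 library, and had 7.63, 10.74 and 9.32 TPM in WT shoots. Its scaled ratio was 189 (95% interval 33.6 to 7490, counting error only; adjusted p = 2.25e-06 by edgeR). *SDD1*, a subtilisin-like protease of the stomatal lineage, had no count in WT calli and 4.25, 4.5 and 5 TPM in WT shoots, at least 32.1-fold higher (adjusted p = 2.12e-06 by edgeR). For all of these genes the shoot libraries stood apart from calli.

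The receptors rose together. *TMM* had 0.42, 0.39 and 0.31 TPM in WT calli and 19.49, 21.76 and 23.1 TPM in WT shoots, a log2 fold change of 5.37 (SE 0.20, adjusted p = 3.42e-08 by edgeR). *ERECTA* had 1.16, 1.16 and 0.66 TPM in WT calli and 63.29, 65.43 and 66.13 TPM in WT shoots. It rose 46.8-fold (log2 fold change 5.55, SE 0.17, adjusted p = 1.13e-08 by edgeR), and it was the most abundant of the 10 genes in WT shoots. *ERL1* had 0.16, 0.29 and 0.02 TPM in WT calli and 7.42, 7.08 and 7.29 TPM in WT shoots (log2 fold change 4.85, SE 0.42, adjusted p = 5.71e-06 by edgeR). *ERL2* had 0.29, 0.2 and 0.24 TPM in WT calli and 13.52, 13.51 and 14.57 TPM in WT shoots (log2 fold change 5.63, SE 0.16, adjusted p = 7.57e-09 by edgeR). The 3 kinases kept their order of level in the mean of each WT stage, *ERECTA* over *ERL2* over *ERL1*, although *ERL2* and *ERL1* overlapped in calli. *ERECTA* held 71.3% ± 0.907 of the summed TPM of the 3 kinases in WT calli and 75.5% ± 0.551 in WT shoots (SD, n = 3).

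In WT shoots the 10 genes were ordered by mean TPM as *ERECTA* (65.0), *TMM* (21.4), *ERL2* (13.9), *SPCH* (10.3), *EPF2* (9.23), *FAMA* (8.87), *ERL1* (7.26), *EPF1* (6.61), *MUTE* (5.82) and *SDD1* (4.58). The first 3 steps of this order and the step from *FAMA* to *ERL1* separated genes whose libraries did not overlap. All other neighbours overlapped between libraries. In *dme-2* shoots *FAMA* took rank 3 of the order and *SPCH*, at 7.64 TPM, rank 7. Between these ranks stood *ERL2* (9.93), *EPF1* (9.89) and *EPF2* (9.52 TPM), and every neighbouring pair from rank 3 to rank 7 overlapped between libraries.

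Of the other pathway genes tested, most were also higher in WT shoots, where 43.4% of all loci were higher and 38.4% lower by edgeR. Of 9 EPFL ligand genes, the peptide family around EPF1 and EPF2, 7 could be tested and all 7 were higher in WT shoots; their median log2 fold change was 3.73 with genes without a callus count at their lowest fold. These 7 passed the filter on counts through the shoots, and with at least 10 counts in every library 0 were called, since none could be tested. *EPFL9*, the peptide that promotes stomata, was listed at 0 TPM in all 6 callus libraries of both genotypes and had 28.54 to 43.33 TPM in WT shoots, at least 29.5-fold higher than in WT calli (adjusted p = 2.14e-06 by edgeR). *EPFL2* had 1 count in WT calli and 221 in WT shoots, a ratio of 159 (95% interval 28.2 to 6290, counting error only; adjusted p = 3.06e-06 by edgeR). Of 12 genes for bHLH partners, cell polarity and divisions of the lineage, 11 were tested, 9 were higher and 0 lower, with a median log2 fold change of 1.34. The other pair, *BRXL2* and *MYB88*, was not called by edgeR, whereas all 11 were higher by limma on TPM, beside 54.9% of all loci. *BASL*, a polarity protein of asymmetric divisions, had no count in WT calli and 7.45 to 8.11 TPM in WT shoots, at least 16.4-fold higher (adjusted p = 6.06e-06 by edgeR). *POLAR*, another polarity protein, rose by a log2 fold change of 5.48 (SE 0.40, adjusted p = 1.92e-06 by edgeR). With 0 counts for *BASL* and 5 for *POLAR* in WT calli, both entered the test through the shoots. Over 13 alternatives, 7 to 11 partner and polarity genes were higher.

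Among 8 signalling genes downstream of or beside the receptors, 5 were higher, 2 lower and 1 was not called in WT shoots. Over all loci 43.4% were higher and 38.4% lower. The median log2 fold change of the 8 genes was 0.943. *SERK2*, a co-receptor kinase, rose by 2.14 (SE 0.16, adjusted p = 2.18e-06 by edgeR) and *MPK3*, a MAP kinase of the YDA cascade, by 1.64 (SE 0.12, adjusted p = 2.09e-06 by edgeR) on the log2 scale. *BAK1*, a co-receptor shared with brassinosteroid and immune signalling, was lower, with a log2 fold change of −1.78 (SE 0.10, adjusted p = 2.57e-07 by edgeR). *MPK6*, the other MAP kinase, was called lower at −0.45 (SE 0.09, adjusted p = 0.000966 by edgeR), but its value was 0.087 when only library size was used for scaling and 0.19 on the log2(TPM + 1) scale. The median over all loci was itself 0.683 and 0.578 with those scalings, against 0.144 with TMM factors.

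The 9 guard cell genes, which act in the mature cells that FAMA specifies, were split. In WT shoots 1 was higher, 6 were lower and 2 were not called, with a median log2 fold change of −1.44, and with scaling by library size alone or on TPM 5 were lower. Over all loci 43.4% were higher and 38.4% lower by edgeR. *OST1*, the kinase of abscisic acid-induced closure, had 87.17 to 110.71 TPM in WT calli and 21 to 23.33 TPM in WT shoots (log2 fold change −2.75, SE 0.12, adjusted p = 7.51e-08 by edgeR). *GC1*, a gene named for its guard cell expression, had 137.62 to 179.8 TPM in WT calli and 35.12 to 56.49 TPM in WT shoots (log2 fold change −2.20, SE 0.17, adjusted p = 2.89e-06 by edgeR). *KAT1*, an inward potassium channel of guard cells, had 0.46 to 1.4 TPM in WT calli and 6.95 to 8.49 TPM in WT shoots and was the gene that rose (log2 fold change 2.44, SE 0.29, adjusted p = 5.4e-05 by edgeR). The summed level of the 9 genes was 304.59 to 351.32 TPM in WT calli and 104.41 to 116.9 TPM in WT shoots, with none at 0 in all libraries of a group. *GC1* and *OST1* made up most of these sums, which moved in the same direction as *FAMA*. The part of the guard cell genes in the *FAMA* values was not tested.

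**Figure D3:**
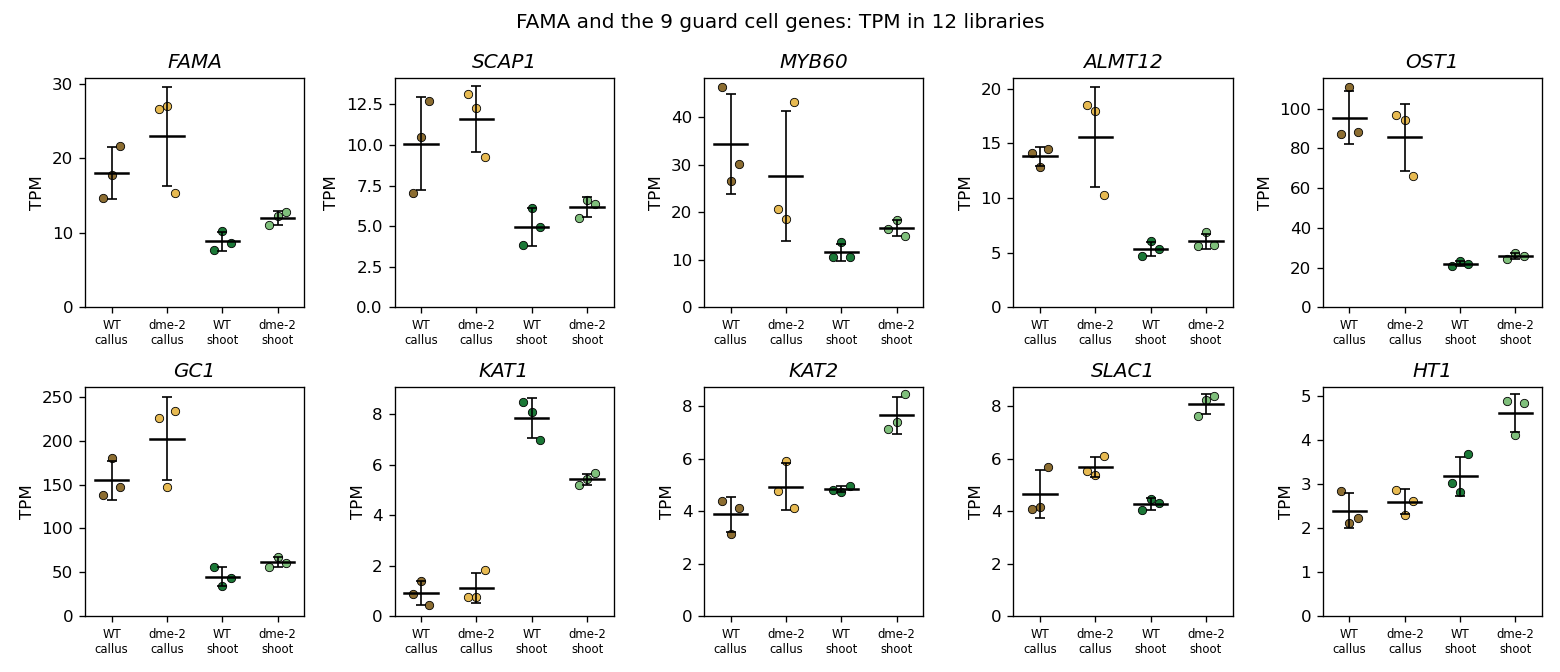
TPM (vertical axis, a separate linear scale for each gene, starting at 0) of *FAMA* and the 9 guard cell genes in 12 libraries; points are libraries, horizontal bars the group means and error bars 1 SD. *OST1* and *GC1* lie at or above 66.05 and 137.62 TPM in all callus libraries and at or below 27.5 and 67.54 TPM in all shoot libraries, whereas *KAT1* lies at or below 1.82 TPM in calli and at or above 5.21 TPM in shoots.

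In *dme-2*, the passage from calli to shoots gave the same counts of calls: 9 of the 10 genes were higher and *FAMA* was lower in *dme-2* shoots than in *dme-2* calli (limma on log2(TPM + 1), adjusted p under 0.05). Over the 18729 loci tested, 49% were higher and 23.8% lower, and the median difference was 2.88 over the 10 genes and 0.483 over all loci on the log2(TPM + 1) scale. This scale understates the change of genes near 0 in calli, and 8 of the 10 genes averaged under 1 TPM in *dme-2* calli and entered the test through the shoots. *SPCH* had 0.07, 0.54 and 0 TPM in *dme-2* calli and 7.8, 6.66 and 8.46 TPM in *dme-2* shoots, and rose by 2.87 on this scale (SE 0.21). *MUTE* had 0.15, 0.64 and 0.17 TPM in *dme-2* calli and 5.24, 3.91 and 7.98 TPM in *dme-2* shoots, a rise of 2.32 (SE 0.27). The libraries of the stages stood apart for both factors, and for the other 8 genes too, where 52.7% of all loci were apart upward and 25.8% downward.

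*FAMA* had 26.57, 27.04 and 15.32 TPM in *dme-2* calli, of which the last was the low one, and 11.04, 12.2 and 12.86 TPM in *dme-2* shoots. It was lower in shoots by a difference of −0.84 (SE 0.22, adjusted p = 0.0126 by limma), with adjusted p between 0.000224 and 0.0492 over 11 alternatives. *EPF1* and *SDD1* were listed at 0 TPM in the 3 *dme-2* callus libraries, and *EPF2* at 0.42, 0 and 0 TPM. In *dme-2* shoots *EPF1* had 10.78, 9.19 and 9.71 TPM, *EPF2* had 8.01, 14.58 and 5.96 TPM and *SDD1* had 4.03, 4.35 and 3.44 TPM, and all 3 genes were called higher. *TMM* had 0.79, 0.23 and 0.79 TPM in *dme-2* calli and 17.44, 20.99 and 19.78 TPM in *dme-2* shoots, a rise of 3.69 (SE 0.19). The receptor kinases behaved alike in direction: *ERECTA* rose by 4.17 (SE 0.13, adjusted p = 5.14e-07 by limma), *ERL1* by 2.67 (SE 0.15) and *ERL2* by 2.90 (SE 0.16).

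The wider lists in *dme-2* held 6 higher and 0 lower of 7 EPFL ligand genes tested, 11 higher of 11 partner and polarity genes, 6 higher and 1 lower of 8 signalling genes, and 4 higher and 4 lower of 9 guard cell genes. Over all loci tested, 49% were higher and 23.8% lower. All 9 EPFL ligand genes averaged under 1 TPM in *dme-2* calli, so those tested entered through the shoots. Of the 12 partner and polarity genes, 4 averaged under 1 TPM in *dme-2* calli. *EPFL9* had the largest called rise among the ligands, at 4.96 (SE 0.20), followed by *EPFL1* at 3.26 (SE 0.22). *SCRM2*, the bHLH partner, rose by 4.14 (SE 0.22) and *TCX2*, a regulator of divisions in the lineage, by 2.78 (SE 0.19). *MPK3* rose by 2.85 (SE 0.12) and *MKK4*, a kinase of the YDA cascade, by 2.38 (SE 0.15), whereas *BAK1* was lower at −0.70 (SE 0.10). Among guard cell genes, *KAT1* at 1.63 (SE 0.21) and *HT1*, a kinase of carbon dioxide responses, at 0.64 (SE 0.14) were higher, and *GC1* and *OST1* were lower at −1.67 each (SE 0.19 and 0.16). With median-ratio scaling of TPM, 1 guard cell gene was higher in place of 4, and *HT1* was at 0.27 and not called; without the third *dme-2* shoot library 2 were higher.

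The question of the genotype comparison is which of these genes differ in the *dme-2* mutant. In shoots, 4 of the 10 genes were lower in *dme-2* than in WT, 1 was higher and 5 were not called (edgeR, adjusted p under 0.05, 3 libraries a group). Of the 19114 loci tested, 26.1% were lower and 26.7% higher, so that 52.8% were called in either direction, against 5 of 10 here. By limma on TPM 2 were lower and 1 higher, beside 21.5% and 20.4% of 18473 loci. The median log2 fold change was −0.287 over the 10 genes and −0.00449 over all loci. The genes that fell were *SPCH*, *ERECTA*, *ERL1* and *ERL2*, and the gene that rose was *FAMA*. The TPM of the groups did not overlap for the same 5 genes, where 28% of all loci did not overlap downward and 24.9% upward.

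**Figure D4:**
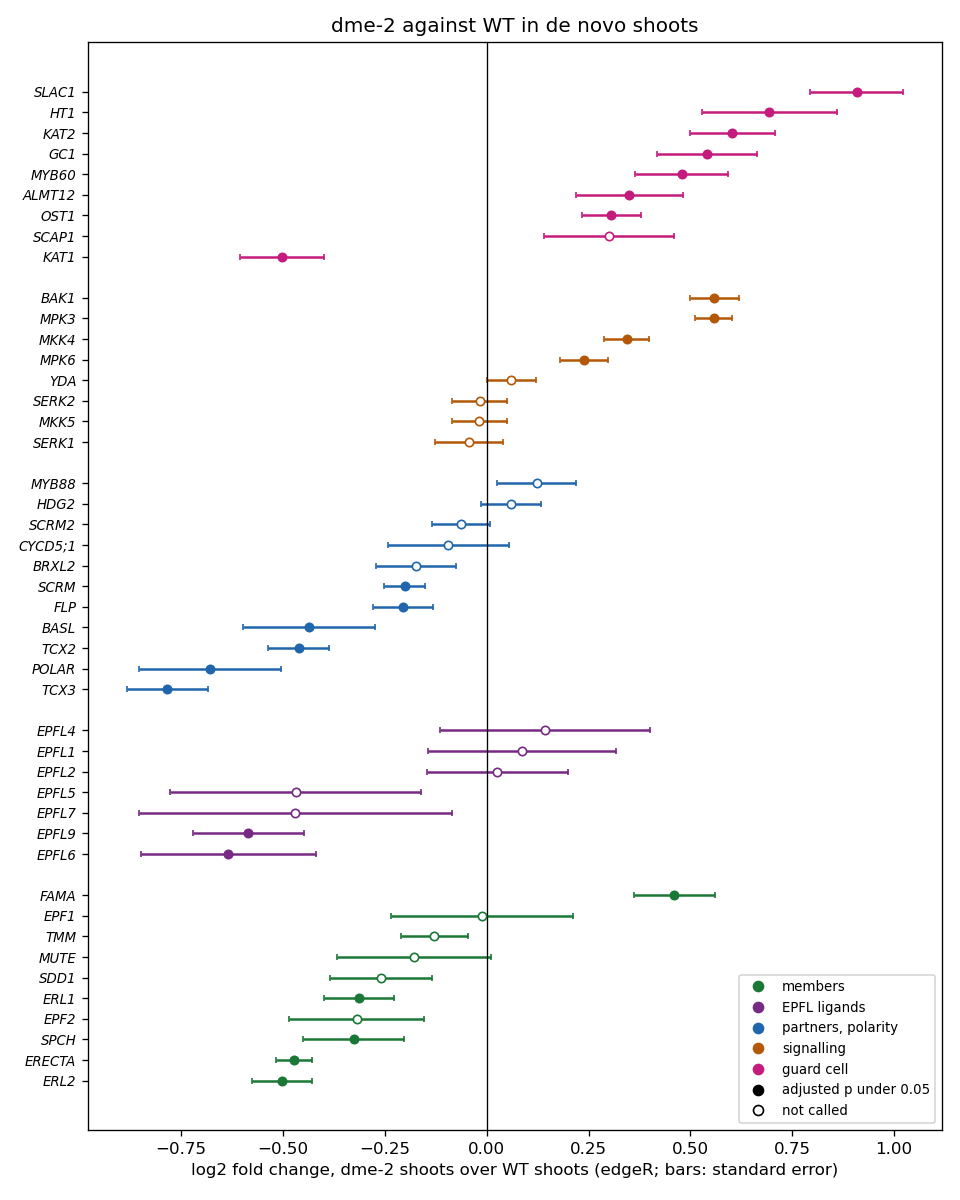
Log2 fold change of *dme-2* shoots over WT shoots (horizontal axis) for the 10 genes and 4 further lists. Bars are the standard error derived from the F statistic of the edgeR test. Filled points had an adjusted p under 0.05 by edgeR and open points did not. *ERECTA* and *ERL2* lie lowest among the 10 genes at −0.47 and −0.50 and *FAMA* alone lies clearly above 0, at 0.46.

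*ERECTA* had the smallest standard error of the 10 genes. Its 3 WT shoot libraries had 63.29, 65.43 and 66.13 TPM and its 3 *dme-2* shoot libraries 45.38, 46.44 and 47.26 TPM, and no library came near the other group. The counts were 2886, 2978 and 3450 in WT and 2503, 2179 and 2400 in *dme-2*, and the fold change was −0.47 on the log2 scale (SE 0.04, adjusted p = 2.73e-09 by edgeR), which is a 28.0% lower level. It was called in all 13 alternatives, with adjusted p from 1.48e-20 to 0.000189.

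*ERL2* had 13.52, 13.51 and 14.57 TPM in WT shoots and 8.78, 9.82 and 11.2 TPM in *dme-2* shoots. Its log2 fold change was −0.50 (SE 0.07, adjusted p = 3.15e-06 by edgeR). The highest *dme-2* library stayed below the lowest WT library, and the call held in all 13 alternatives (adjusted p 4.19e-10 to 0.00863). *ERL2* lies on the chromosome of *DME*, 278 loci away in the order of the L*er* table, whereas *ERL1* and *SPCH* are 5262 and 4304 loci away on that chromosome and the other 7 genes are on other chromosomes. Whether sequence linked to the *dme-2* allele bears on *ERL2* was not tested. *ERL1* had 7.42, 7.08 and 7.29 TPM in WT shoots and 5.44, 5.75 and 6.58 TPM in *dme-2* shoots, again without overlap. Its log2 fold change was −0.31 (SE 0.09, adjusted p = 0.00386 by edgeR), and on TPM it was not called (limma, adjusted p = 0.0648, the highest of 13 alternatives, which began at 0.000965). *TMM*, their partner, had 19.49, 21.76 and 23.1 TPM in WT shoots and 17.44, 20.99 and 19.78 TPM in *dme-2* shoots. These groups overlapped, and the log2 fold change of −0.13 (SE 0.08, adjusted p = 0.194 by edgeR) was not called.

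The proportions of the 3 kinases, all of which were lower, were also compared, in a design of 3 against 3 libraries whose exact test cannot give a p under 0.1. *ERECTA* held 75.5% ± 0.551 of their summed TPM in WT and 74.6% ± 1.72 in *dme-2* shoots, and *ERL2* 16.1% ± 0.451 and 15.9% ± 1.25 (SD, n = 3). The difference was −0.9 percentage points for *ERECTA* (exact permutation test, two-sided, p = 0.5) and −0.233 points for *ERL2* (p = 0.9, same exact test). *ERL1* held 8.44% ± 0.319 in WT and 9.5% ± 0.524 in *dme-2* shoots, a difference of 1.06 points without overlap between the libraries (p = 0.1, same exact test).

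Among the bHLH factors, the first and the last moved in opposite directions in *dme-2* shoots. *SPCH* had 11.99, 10.05 and 8.73 TPM in WT shoots and 7.8, 6.66 and 8.46 TPM in *dme-2* shoots, a narrow gap between the lowest WT and the highest *dme-2* library. The log2 fold change was −0.33 (SE 0.12, adjusted p = 0.0298 by edgeR). This call was lost in 5 of 13 alternatives: with DESeq2 (adjusted p = 0.0645), with limma on TPM (0.0556), and without the first WT library (0.157), the second WT library (0.0583) or the second *dme-2* library (0.0999), in a range of 0.0163 to 0.157. *MUTE* had 4.86, 6.8 and 5.8 TPM in WT shoots and 5.24, 3.91 and 7.98 TPM in *dme-2* shoots, where the *dme-2* libraries enclosed those of WT. Its log2 fold change was −0.18 (SE 0.19, adjusted p = 0.448 by edgeR).

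*FAMA* had 7.73, 10.3 and 8.58 TPM in WT shoots and 11.04, 12.2 and 12.86 TPM in *dme-2* shoots, without overlap. It was 37.6% higher in the mutant (log2 fold change 0.46, SE 0.10, adjusted p = 0.000385 by edgeR), and was called in all 13 alternatives (adjusted p 7.59e-05 to 0.025). As a share of the summed TPM of the 3 bHLH genes, *FAMA* took 35.5% ± 3.54 in WT and 47.8% ± 5.14 in *dme-2* shoots, and *SPCH* 41.2% ± 6.59 and 30.2% ± 1.94 (SD, n = 3). The libraries of the groups did not overlap for either share, with p = 0.1 for each (exact permutation test, two-sided), the smallest this design allows. *MUTE* took 23.3% ± 3.03 and 22.1% ± 5.01, a difference of −1.23 points (p = 0.7, same exact test).

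The genes for the secreted peptides and the protease were not called. *EPF2* had 7.63, 10.74 and 9.32 TPM in WT shoots and 8.01, 14.58 and 5.96 TPM in *dme-2* shoots, with the widest spread in *dme-2*; its counts of 73, 82 and 108 in WT and 80, 74 and 68 in *dme-2* gave a log2 fold change of −0.32 (SE 0.17, adjusted p = 0.111 by edgeR). *EPF1* had 42, 35 and 52 counts in WT shoots and 53, 46 and 36 in *dme-2* shoots, a log2 fold change of −0.01 (SE 0.22, adjusted p = 0.97 by edgeR). Its TPM values of 4.66, 9.46 and 5.72 in WT and 10.78, 9.19 and 9.71 in *dme-2* gave 0.56 on the log2(TPM + 1) scale (limma, adjusted p = 0.0728, the lowest over 13 alternatives, which reached 0.983). For these short genes the counts and the TPM did not order the libraries alike, and the cause was not tested. *SDD1* had 4.25, 4.5 and 5 TPM in WT shoots and 4.03, 4.35 and 3.44 TPM in *dme-2* shoots (log2 fold change −0.26, SE 0.13, adjusted p = 0.0872 by edgeR), with overlap between the groups.

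Beyond the 10 genes, 0 of 7 EPFL ligand genes were higher and 2 were lower in *dme-2* shoots by edgeR, beside 26.7% and 26.1% of all loci. The count of 2 of 7 lower is thus near the share over all loci. Their median log2 fold change was −0.469, and limma on TPM called 0. *EPFL6*, a ligand of ERECTA in stem growth, had 7.04 to 10.73 TPM in WT and 4.47 to 8.35 TPM in *dme-2* shoots (log2 fold change −0.63, SE 0.21, adjusted p = 0.0158 by edgeR). *EPFL9* had 28.54 to 43.33 TPM in WT and 25.39 to 40.57 TPM in *dme-2* shoots (log2 fold change −0.58, SE 0.14, adjusted p = 0.000898 by edgeR). Both overlapped in TPM. Both calls were lost on TPM (limma, adjusted p = 0.125 and 0.38), and that of *EPFL6* also without the third WT library (0.135) or the first *dme-2* library (0.0672); the lowest over 13 alternatives were 0.0088 for *EPFL6* and 0.000164 for *EPFL9*.

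Of the 11 partner and polarity genes tested, 6 were lower and 0 higher in *dme-2* shoots, with a median of −0.202, where 26.1% of all loci were lower. They were *TCX3*, *POLAR*, *TCX2*, *BASL*, *FLP* and *SCRM*. *TCX3*, a regulator of divisions related to *TCX2*, had 12.91 to 14.02 TPM in WT and 6.6 to 9.08 TPM in *dme-2* shoots (log2 fold change −0.78, SE 0.10, adjusted p = 4.01e-07 by edgeR). *POLAR* had 5.4 to 7.84 TPM in WT and 2.47 to 4.7 TPM in *dme-2* shoots (log2 fold change −0.68, SE 0.18, adjusted p = 0.00218 by edgeR). Neither gene had overlapping groups. In the signalling list 4 of 8 genes were higher and 0 lower, with a median of 0.15, where 26.7% of all loci were higher, and the largest rises were those of *BAK1* and *MPK3*, both at 0.56 (SE 0.06 and 0.05, adjusted p = 2.95e-08 and 2.01e-10 by edgeR).

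In the guard cell list 7 of 9 genes were higher and 1 lower in *dme-2* shoots, with a median of 0.478, beside 26.7% and 26.1% of all loci and a median of −0.00449; on TPM 5 were higher and 1 lower. *SLAC1*, the anion channel of stomatal closure, had 4.05 to 4.47 TPM in WT and 7.63 to 8.38 TPM in *dme-2* shoots (log2 fold change 0.91, SE 0.11, adjusted p = 3.22e-07 by edgeR). *HT1* rose by 0.69 (SE 0.16, adjusted p = 0.00103 by edgeR). *KAT1* was the one that fell, from 6.95 to 8.49 TPM in WT to 5.21 to 5.65 TPM in *dme-2* shoots (log2 fold change −0.50, SE 0.10, adjusted p = 0.000225 by edgeR). The 9 genes summed to 104.41 to 116.9 TPM in WT shoots and 132.71 to 152.15 TPM in *dme-2* shoots, beside the higher *FAMA* level. *GC1* and *OST1* made up most of these sums. The shoot meristem markers, 5 genes with *STM* and *KNAT1* as the abundant ones and *WUS* and *CLV3* with means under 1 TPM, summed to 33.84 to 34.72 TPM in WT and 52.44 to 59.66 TPM in *dme-2* shoots. The 7 root and callus markers summed to 31.83 to 32.95 TPM in WT and 23.79 to 26.17 TPM in *dme-2* shoots. Most of these sums came from *SCR* (16.86 to 18.04 and 12.28 to 14.79 TPM) and *SHR* (11.76 to 12.99 and 8.79 to 10.77 TPM). Neither of these genes was lower in WT shoots than in WT calli. Only *SCR*, *SHR* and *WOX5* could be tested, and all 3 were lower in *dme-2* shoots. *LBD16*, *LBD29*, *PLT1* and *PLT2* had at most 0.56 TPM in any shoot library of either genotype. Of the 2 epidermal markers, *FDH* had 143.05 to 199.15 TPM in WT and 158.34 to 215.67 TPM in *dme-2* shoots and was called higher (log2 fold change 0.25, SE 0.08, adjusted p = 0.0165 by edgeR), and *LTP1* had 2548.98 to 3062.29 and 2316.25 to 3057.63 TPM and was not called. The part of these differences in tissue in the values of the 10 genes was not tested.

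In calli, where the same genotypes were compared, only *FAMA* and *ERECTA* reached the mean of 1 TPM required for the test, and neither was called (limma on log2(TPM + 1); 0 also at an unadjusted p under 0.05). Of the 17029 loci tested, 0.141% were called, 0.0529% higher and 0.0881% lower in *dme-2*. These were 9 loci higher and 15 lower, against 232 and 203 with all 12 libraries in one fit, and 0 to 3 and 1 to 6 when single libraries were left out; the 10 genes gave no call in any of these. *FAMA* had 14.63, 17.75 and 21.66 TPM in WT calli and 26.57, 27.04 and 15.32 TPM in *dme-2* calli, with overlap, and a difference of 0.31 (SE 0.25, adjusted p = 0.879 by limma). *ERECTA* had 1.16, 1.16 and 0.66 TPM in WT calli and 1.74, 1.28 and 1.89 TPM in *dme-2* calli, without overlap, and a difference of 0.41 (SE 0.25, adjusted p = 0.797 by limma). *ERL2*, not tested, had 0.29, 0.2 and 0.24 TPM in WT calli and 0.5, 0.3 and 0.58 TPM in *dme-2* calli, and these libraries did not overlap either. Such a separation upward was seen at 7.53% of the 17029 loci tested, a set that does not include *ERL2*. *DME* itself was lower by a difference of −1.53 (SE 0.17, adjusted p = 0.0411 by limma), and its call was lost in 8 of 11 alternatives (adjusted p 6.27e-05 to 0.436). The other 8 genes, below the required mean, were not tested for a genotype difference in calli.

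Whether the genotype difference itself changed between stages was tested with the interaction of genotype and stage over the 12 libraries (limma on log2(TPM + 1)). It was called for 2 of the 10 genes, *ERECTA* and *ERL2*, both in the downward direction, against 4.2% of 18813 loci downward and 6.75% upward. For *ERECTA* the difference between *dme-2* and WT was lower in shoots than in calli by a contrast of −0.88 (SE 0.18, adjusted p = 0.0111 by limma), and it was called in all 16 alternatives (adjusted p 0.00411 to 0.0361). The *dme-2* libraries were the higher ones in calli and the lower ones in shoots. For *ERL2* the contrast was −0.68 (SE 0.18, adjusted p = 0.0354 by limma), which was lost in 11 of 16 alternatives (adjusted p 0.0168 to 0.097), among them every omission of a library apart from the first WT callus, the second *dme-2* callus and the third *dme-2* shoot library. The callus levels of both genes lie near 1 TPM or below, so the contrast rests on small callus values. Apart from *FAMA* and *ERECTA*, the 10 genes entered this test through the shoots. The log2(TPM + 1) scale compresses ratios near 0 TPM, so an equal genotype ratio at both stages can also give a contrast. In shoots alone the difference on this scale was −0.48 for *ERECTA* and −0.45 for *ERL2*. The fit also shared the spread of each gene between calli and shoots. WT callus libraries differed more among themselves (chi-square per gene 14.8 to 25.1) than shoot libraries did (1.54 to 4.44). The SE and adjusted p of these contrasts can therefore understate the spread of calli. The adjusted p was 0.865 for *FAMA* and 0.338 for *SPCH* (limma), so a change in their genotype difference between stages was not called. In the signalling list, *MPK3* (0.81, SE 0.16, adjusted p = 0.0103 by limma) and *BAK1* (0.58, SE 0.13, adjusted p = 0.0185 by limma) were called upward. No gene of the EPFL, partner and guard cell lists was called. Both shoot meristem markers that could be tested were called upward, with a median contrast of 0.779.

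**Figure D5:**
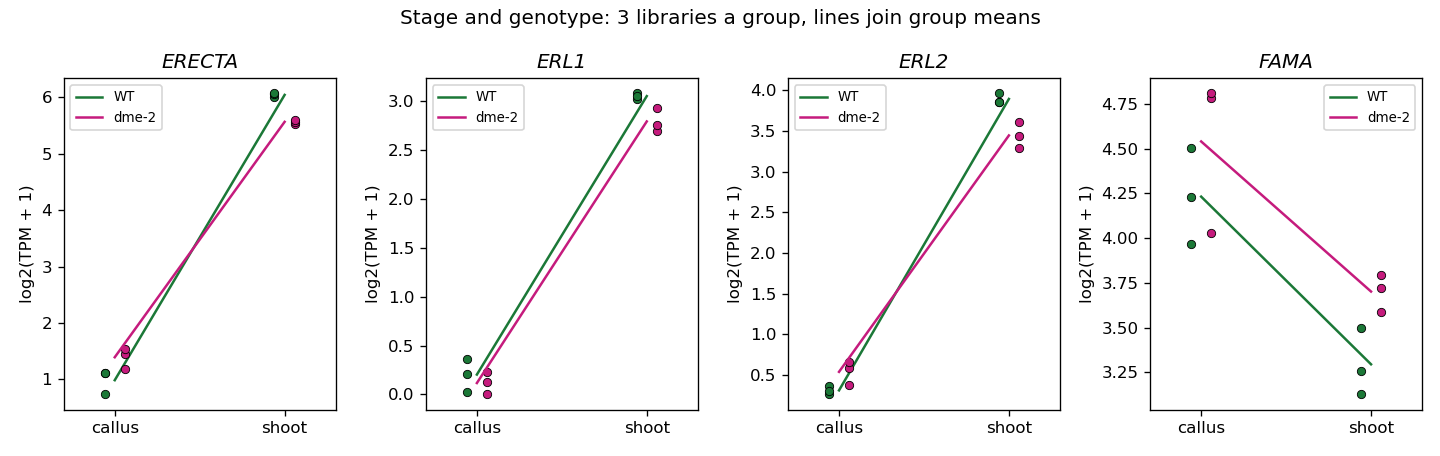
Log2(TPM + 1) (vertical axis, a separate scale for each gene) of *ERECTA*, *ERL1*, *ERL2* and *FAMA* in calli and shoots; points are libraries, and lines join the means of WT and of *dme-2*. The lines cross for *ERECTA* and *ERL2*, whose contrasts are −0.88 and −0.68, and do not cross for *FAMA*, where *dme-2* has the higher mean at both stages.

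Across the 12 libraries 9 of the genes varied together and *FAMA* opposite to them: Pearson r of log2(TPM + 1) was 0.929 to 0.998 between any pair of the other 9 genes and −0.868 to −0.775 between *FAMA* and each of them. These correlations are descriptions over 12 libraries that share their stage, which sets most of the range. By the same measure the loci most like *SPCH* were *FTSH1*, which encodes a chloroplast protease (r = 0.9978), *AT1G12330* (0.9971) and *AT5G11610* (0.997). Those most like *TMM* were *PME61*, named as a pectin methylesterase gene, and *AT5G14910* (both 0.9986), and *AT2G36430* (0.9983). Those most like *ERL1* were *DPE2*, an enzyme of starch breakdown (0.9989), and *HCF136* and *CP29*, both chloroplast proteins (0.9988 each). Such values were common, since 3660 loci had r above 0.95 with *SPCH*, 4495 with *TMM* and 4477 with *ERL1*, out of 18813.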

How the data were processed

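RNA-seq of 12 libraries (4 groups, 3 biological replicates each) was analysed from the processed tables. The authors prepared stranded mRNA libraries, mapped reads to the L*er* assembly with STAR 2.7.10a and quantified transcripts with RSEM 1.3.1, and deposited TPM and whole-number counts per L*er* locus; how whole numbers were obtained is not given in the sources used here. Counts were tested with edgeR 4.0.16 (TMM, filterByExpr, quasi-likelihood, R 4.3.3) on the 6 libraries of a comparison. The SE given with edgeR was derived as the absolute log2 fold change over the square root of the F statistic of that test. Where *dme-2* calli entered, and for the interaction, limma 3.58.1 (trend) was run on log2(TPM + 1) at loci averaging 1 TPM or more. P-values were Benjamini-Hochberg adjusted over all loci tested, with 0.05 as threshold. Genes were matched through the Columbia homologs listed in the table; 74 of 74 list genes are in RefSeq (TAIR10.1), and 65 had 1 locus with 1 homolog. The other list genes were left out: *LHCB1.3* and *RBCS3B* matched 5 and 4 loci, and the rest were listed as the homolog of no locus. Left out were 3 of 5 epidermal and 3 of 5 mesophyll markers, among others. No sequence or coordinate was used, since the reference at hand is of another accession. The members and lists were chosen with earlier results of these data known. All 10 genes were named, and of the EPFL, signalling, partner and guard cell lists up to 2 called genes each way per comparison; the 3 loci of highest r were named for *SPCH*, *TMM* and *ERL1*. Further list genes were named after their values were seen. Libraries of a group differed beyond sampling noise (chi-square per gene 1.54 to 25.1). Folds against genes without a count used a floor of 3 counts in each library, and intervals (95%, exact binomial) cover counting error only. Fits were tested on simulated data. Alternatives were DESeq2 1.42.0, other scaling, filters, pseudocount, a replicate block and omission of each library.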

Additional observations from a re-analysis of the deposited data

Results flagged for a closer look

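The genotype difference was tested for a change between calli and shoots, with 3 libraries in each of 4 groups. The test was the interaction of genotype and stage (limma on log2(TPM + 1)). Of the stomatal lineage and *ERECTA* family genes and the EPFL, signalling, partner and guard cell lists, 4 genes passed. Both shoot meristem markers that could be tested also passed, upward, with a median contrast of 0.779. As above, the fit shared the spread of each gene between calli and shoots, which can understate the spread of calli. The scale also compresses ratios of genes near 0 TPM in calli. *ERECTA* differed by −0.88 (adjusted p = 0.0111), with *dme-2* at 1.28 to 1.89 TPM against 0.66 to 1.16 TPM in WT calli and at 45.38 to 47.26 TPM against 63.29 to 66.13 TPM in WT shoots. *ERL2* differed by −0.68 (adjusted p = 0.0354), with the smaller support given above. *MPK3* differed by 0.81 (adjusted p = 0.0103) and *BAK1* by 0.58 (adjusted p = 0.0185), both with the *dme-2* level relatively higher in shoots; the call of *BAK1* was lost with a replicate block (adjusted p = 0.0502) and without the first *dme-2* shoot library (0.0507).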

How the results depend on the processing

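Of the values for the 10 genes under all alternatives, 517 kept their direction and their side of the threshold, 17 lost the call, 2 gained it and 8 changed sign. With at least 10 counts in every library, 1 of the 10 genes rose from WT calli to WT shoots instead of 9, because the other 8 were not tested. *MPK6* changed sign there with library size only (0.087) and on TPM (0.19). In that comparison 8514 loci were higher and 7541 lower, against 11152 and 5282 with library size only and 10305 and 5049 on TPM; in *dme-2*, 9181 and 4452 became 6532 and 6434 with median-ratio scaling of TPM. In shoots, limma on TPM called 2 genes lower in *dme-2* instead of 4, and *EPF1* changed sign (0.56; −0.11 to 0.13 when single libraries were left out). In calli, the loci higher in *dme-2* were 9, against 3 without a filter on TPM, 232 with all 12 libraries in one fit and 0 to 3 without single libraries; the loci lower were 15, against 203 and 1 to 6. For the interaction, 2 of the 10 genes were lower, against 1 with a pseudocount of 0.1 and 1 to 2 without single libraries, and 0 higher, against 0 to 1; over all loci 791 were lower, against 416 to 1693. Interactions of *FAMA* (0.10) and *EPF2* (−0.20) changed sign without single libraries (−0.16 to 0.23 and −0.53 to 0.055), and that of *ERL1* was 0.12 with a pseudocount of 0.1. Where no fewer loci or samples entered, the cause was not tested.

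Replicate numbers did not pair the libraries: the mean correlation of deviations at the same number was 0.0107, −0.0407, −0.238 and −0.00804 in the comparisons of stage in WT, genotype in shoots, genotype in calli and stage in *dme-2*. With the replicate number as a block, 0 loci were higher and 1 lower between callus genotypes, 1 of the 10 genes and 502 loci were lower for the interaction, and *ERL2* was not called there (adjusted p = 0.0591, limma). The block changed no other call of the 10 genes. In WT calli *EPF1* and *SDD1* had no count, at totals of 12981250 to 20128757 counts per library.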
